A study of Mus musculus with 4 samples.

Results

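Genes known from macrophages and monocytes of the spleen were followed in sorted regulatory T (Treg) cells with and without CYLD. The members were 36 named genes. Each was read from a probe set annotated with exactly 1 gene symbol, and where a gene had several such probe sets the one with the highest mean log2 value was kept. All 36 were measured, of 19938 genes with 1 symbol in all.

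The expression values came from 4 Affymetrix Mouse Gene 1.0 ST arrays. The wild-type (WT) group, 2 arrays, held YFP-positive Treg cells of C57Bl6 mice of genotype Cyld+/+ Foxp3-yfp-cre. The CYLD knockout (CYLD KO) group, also 2 arrays, held the same cells of Cyld fl/fl Foxp3-yfp-cre mice. All animals were 6 to 8 weeks old. Both groups carried the Cre recombinase, which is driven by Foxp3 together with yellow fluorescent protein, so the floxed Cyld gene is removed in cells that express Foxp3 and a macrophage is not a target of the deletion by design. The labels give the tissue as spleen with lymph nodes in one field and as spleen in another. The labels do not state whether each array used different animals. The p-values rest on the spread between arrays of a group, pooled over all genes. Between the 2 WT arrays that spread may be technical. The 2 CYLD KO arrays differed in Y-linked genes and Xist, with values given below, and which animals each held was not tested.

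Red pulp macrophages clear aged red blood cells from the blood that filters through the spleen, break down haem and return the iron to the circulation. Their development needs the transcription factor Spi-C, which haem itself induces. Marginal zone macrophages line the border of the white pulp and capture particles from the blood. Many other genes of the set (the CSF1 receptor, the FcR gamma chain, lysosomal proteins) are shared by macrophages, monocytes and often other leukocytes. The products of C1qa, C1qb and C1qc assemble into C1q, which starts the classical complement pathway and is made largely by tissue macrophages. Treg cells are the Foxp3-dependent branch of the CD4 T cell lineage that restrains immune responses, and CYLD is a deubiquitinase that limits NF-kB signalling. Of the 36 members, 13 were grouped as red pulp genes, 3 as C1q chains, 2 as marginal zone genes and 17 as pan-myeloid genes. The remaining 1, Maf1, encodes a repressor of RNA polymerase III that is active in most cells and marks no macrophage.

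Promoter sequences are shown as a description of the members, and a link between them and the changes in the knockout was not tested. RefSeq promoters (GRCm38.p6) matched 23 of the 36 symbols. The 5 below are genes that fell, given as the 250 bases before the start site, 5′ to 3′ on the gene's strand. The capitals mark GAGGAA, a core found in binding sites of the ETS factors PU.1 (Spi1) and Spi-C, or its reverse complement TTCCTC.
Spic, chr10:88683024-88683273, minus strand: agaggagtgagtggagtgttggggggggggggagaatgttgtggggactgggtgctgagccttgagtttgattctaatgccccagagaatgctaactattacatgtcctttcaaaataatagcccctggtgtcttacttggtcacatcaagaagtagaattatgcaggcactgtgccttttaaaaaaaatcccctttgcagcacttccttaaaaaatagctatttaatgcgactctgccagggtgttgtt
C1qb, chr4:136886201-136886450, minus strand: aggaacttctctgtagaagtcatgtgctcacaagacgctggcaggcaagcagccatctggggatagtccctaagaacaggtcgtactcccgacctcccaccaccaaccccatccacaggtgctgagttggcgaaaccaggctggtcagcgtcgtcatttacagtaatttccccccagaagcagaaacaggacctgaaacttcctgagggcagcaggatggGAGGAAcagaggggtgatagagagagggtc
C1qc, chr4:136892915-136893164, minus strand: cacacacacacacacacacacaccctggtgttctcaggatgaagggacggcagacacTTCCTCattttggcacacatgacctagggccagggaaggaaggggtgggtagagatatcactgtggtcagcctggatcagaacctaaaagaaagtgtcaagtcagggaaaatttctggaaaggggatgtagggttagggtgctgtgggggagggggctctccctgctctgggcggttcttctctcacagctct
Treml4, chr17:48264045-48264294, plus strand: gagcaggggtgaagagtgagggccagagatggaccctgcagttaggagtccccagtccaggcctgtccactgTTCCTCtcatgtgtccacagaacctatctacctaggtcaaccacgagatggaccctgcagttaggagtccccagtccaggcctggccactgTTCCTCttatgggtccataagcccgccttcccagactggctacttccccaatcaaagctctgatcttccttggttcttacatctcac
Mrc1, chr2:14229164-14229413, plus strand: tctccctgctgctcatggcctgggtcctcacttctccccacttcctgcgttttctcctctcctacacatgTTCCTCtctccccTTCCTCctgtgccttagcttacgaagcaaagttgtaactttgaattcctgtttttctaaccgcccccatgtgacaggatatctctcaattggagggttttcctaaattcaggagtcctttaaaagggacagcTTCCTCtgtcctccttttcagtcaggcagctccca
C1qb held the motif once on the gene's strand, C1qc once on the opposite strand, Treml4 at 2 and Mrc1 at 3 places on the opposite strand. The Spic window held no match on either strand. On either strand the motif was present upstream of 17 of the 23 members (73.9%) and of 6986 of 27025 genes with a promoter in the table (25.9%). It was found in 7 of the 11 matched members that fell and in 10 of the 12 without a call, a group that includes Cd163, Cd5l, Clec7a and Fcgr1, which were below the filter and not tested. A match describes letters in this window, not a bound site.

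In the knockout cells 19 of the 36 members fell and 0 rose. Of the 36, 30 lay above the filter on low values and were tested (limma, adjusted p under 0.05 over 13956 genes), 11 of them did not pass, and 6 were too low to test. Over all tested genes 3.50% were called lower and 4.79% higher, 8.29% in all. The filter took the mean over the 4 arrays, and 8 of the 19 had a knockout mean below it, so they were tested because of their wild-type level. Of all 488 genes called lower, 44 had a knockout mean below the filter and a wild-type mean above it. The 8 members were Spic, Slc40a1, Adgre1, Fcna, Hpgd, Mrc1, C1qa and C1qc, all of them red pulp or C1q genes. At an unadjusted p under 0.05, 21 members were lower, with Siglec1 and Fcgr3 added, and 1 was higher, Ctss. Over all 36 members the median log2 fold change was -0.51, against -0.01 over all 19938 genes. The members were chosen with earlier results of these data known, so contrasts with all genes describe the set and do not test it. Both knockout arrays lay below both wild-type arrays in 25 of the 36, against 23.6% of all genes. All 19 that fell were among the 25, which nearly follows from the call, since 485 of the 488 genes called lower showed it. The fall was at least 2-fold (log2 fold change of -1 or less) in 8 members, Spic, Slc40a1, Hmox1, Vcam1, Adgre1, C1qb, Csf1r and Sirpa, out of 45 such genes on the array (0.322% of those tested). In bulk RNA, fewer cells of a type and less RNA per cell cannot be told apart.

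The test rests on a variance pooled over all genes, because limma estimated an infinite prior for it. Every log2 fold change therefore carries the same standard error of 0.17. With no pooling of variances limma called 0 genes, members included. In that fit 14 members were lower at an unadjusted p under 0.05, and the smallest adjusted p of a member was 0.226. Of the 19 members that fell, 14 kept the call in each of the 4 fits that left out 1 array. The deposited intensities have a floor well above 0 (the 5th percentile was 42.1 to 42.3 on every array), so the fold of a dim member is smaller than the change of its own signal, and none can be called absent.

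The arrays shared a scale, with medians between 99.0 and 105. Cyld itself read 524 and 502 in WT and 284 and 218 in CYLD KO. CYLD KO replicate 2 stood apart in sex-linked genes. It read 127 for Kdm5d, 132.5 for Uty and 98.9 for Eif2s3y, all Y-linked, where the other arrays read 219 to 283. Xist read 2321 on it and 1306 to 1630 on the others. Xist, Kdm5d and Uty read above the array median on every array, and whether an array held RNA of both sexes was not tested. Some of these genes were called between the groups. Eif2s3y had a log2 fold change of -0.66 (limma adjusted p = 0.00242), although its groups overlapped. For Kdm5d it was -0.56 (adjusted p = 0.0160), with 268 on CYLD KO replicate 1 against 271 and 275 in WT. For Xist it was 0.52 (adjusted p = 0.0291), while Uty had no call (adjusted p = 0.545). The group contrast therefore carries the difference of CYLD KO replicate 2 in sex-linked genes. Without that array 18 of the 19 members stayed lower, and without CYLD KO replicate 1 16 of them did.

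**Figure D1:**
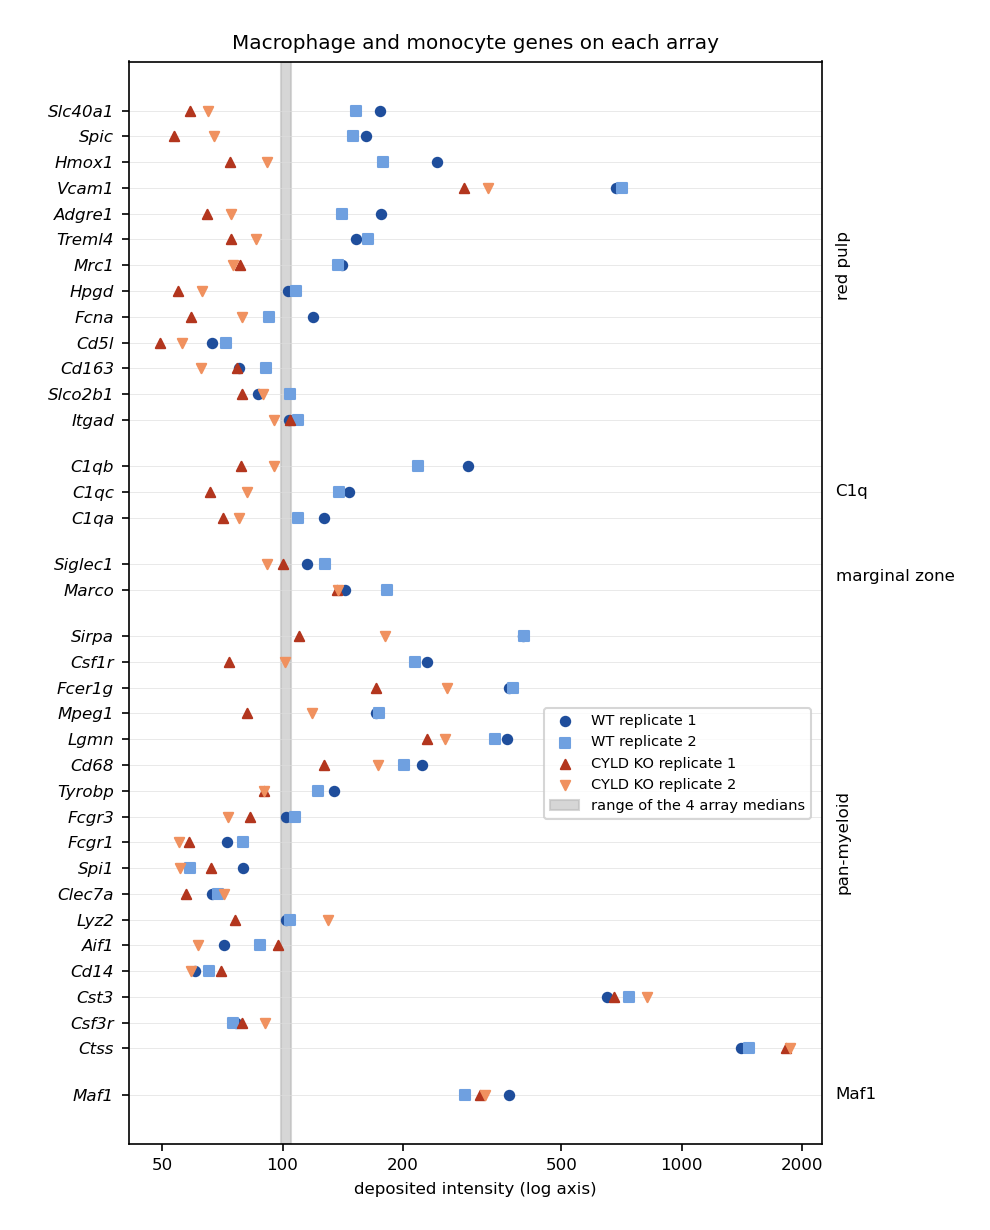
Deposited intensity (log axis) of each of the 36 genes on the 4 arrays, grouped by role and ordered by change; the grey band spans the array medians of 99.0 to 105. For Spic, Slc40a1, C1qb and Csf1r the wild-type points lie between 149.8 and 292 and the knockout points between 53.4 and 102, while Lyz2, Cst3 and Maf1 overlap.

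Slc40a1, Spic and Hmox1 had the largest falls among the red pulp genes, and Slc40a1 and Hmox1 handle iron and haem. Slc40a1, which encodes ferroportin, the only known iron exporter of cells, read 175 and 153 on the WT arrays and 58.6 and 65.1 on the CYLD KO arrays. The knockout mean was 37.7% of the wild-type mean, a log2 fold change of -1.39 ± 0.17 (SE, limma adjusted p = 5.90e-14). Hmox1, the haem oxygenase that opens the haem ring and frees the iron, read 245 and 179 in WT and 74.0 and 91.7 in CYLD KO. Its log2 fold change was -1.33 ± 0.17 (adjusted p = 8.52e-13), and its WT arrays lay further apart on the log2 scale than those of any other member. Cd163, the scavenger receptor for haemoglobin bound to haptoglobin, read 77.7 and 90.7 in WT and 76.9 and 62.6 in CYLD KO and lay below the filter.

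Spic, the gene of the transcription factor that red pulp macrophages need, read 162 and 149.8 in WT and 53.4 and 67.2 in CYLD KO. It fell by 1.36 on the log2 scale (95% interval -1.70 to -1.03, adjusted p = 2.16e-13). The knockout mean was 38.7% of wild type, a ratio that includes the floor of the arrays. Taking each array's 5th percentile off first, the knockout mean was 15.95% of wild type for Spic and 16.2% for Slc40a1.

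Vcam1, Adgre1, Treml4 and Mrc1, which encode surface proteins, also fell, while Itgad, Slco2b1 and Cd163, described further on, had no call. The adhesion molecule Vcam1, which binds integrin alpha 4 and is also made by activated endothelium and stroma, read 683 and 710 in WT and 285 and 327 in CYLD KO. The knockout mean was 44.0% of wild type, and 40.4% after taking off the 5th percentile (log2 fold change -1.19 ± 0.17, adjusted p = 4.74e-10). Adgre1, which encodes the F4/80 antigen, read 177 and 141 in WT and 64.7 and 74.2 in CYLD KO (log2 fold change -1.18 ± 0.17, adjusted p = 6.13e-10). Treml4, a receptor of the TREM family, read 152 and 163 in WT and 74.2 and 85.9 in CYLD KO. Its log2 fold change was -0.97 (adjusted p = 7.41e-07). The mannose receptor gene Mrc1 read 141 and 138 in WT and 78.1 and 74.99 in CYLD KO, with little spread in either group. It fell by 0.86 on the log2 scale (adjusted p = 2.48e-05).

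Hpgd, the enzyme that inactivates prostaglandin E2, read 104 and 108 in WT and 54.8 and 62.7 in CYLD KO. Its log2 fold change was -0.84 (adjusted p = 3.58e-05), and no array of one group reached the other. Fcna, the secreted lectin ficolin A, read 119 and 92.5 in WT and 59.0 and 79.0 in CYLD KO, with a spread in both groups. It passed with a log2 fold change of -0.61 (adjusted p = 0.00634) but had an adjusted p of 0.545 without WT replicate 1 and 0.119 without CYLD KO replicate 1.

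The other 4 red pulp genes did not pass or were not tested. Cd5l, a secreted scavenger protein of macrophages, read 66.5 and 72.3 in WT and 49.4 and 55.9 in CYLD KO, below the filter. Slco2b1, an organic anion transporter, had a log2 fold change of -0.18 (95% interval -0.51 to 0.15). For Itgad, the integrin alpha D chain, the result turned on the probe set. The one kept by mean log2 value read 104 and 109 in WT and 105 and 95.2 in CYLD KO (log2 fold change -0.09). The other, which has the higher mean on the linear scale, read 118 and 130 in WT and 83.3 and 87.1 in CYLD KO, a log2 fold change of -0.54 (adjusted p = 0.0239 when it was used instead, a choice made after seeing the data). Of the 13 red pulp genes 11 were tested and 9 fell, against 3.50% of all tested genes. Among the 9, Spic, Slc40a1, Adgre1, Fcna, Hpgd and Mrc1 had a knockout mean below the filter and were tested because of their wild-type level. The median log2 fold change over the 13 was -0.86. All 13 had values below 0, as did 10348 of all 19938 genes.

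The C1q chains all fell, though C1qa and C1qc had a knockout mean below the filter and were tested because of their wild-type level. C1qb, the chain with the largest fall of any member, read 292 and 219 in WT and 78.7 and 95.3 in CYLD KO. The knockout mean was 34.1% of wild type (log2 fold change -1.53 ± 0.17, adjusted p = 5.23e-17), the 6th largest fall among all genes called lower. C1qc read 147 and 139 in WT and 65.9 and 81.3 in CYLD KO (log2 fold change -0.95, adjusted p = 1.50e-06). C1qa read 127 and 109 in WT and 71.0 and 77.9 in CYLD KO, a log2 fold change of -0.66 (adjusted p = 0.00280, and 0.290 without WT replicate 1). The 3 genes are neighbours on chromosome 4. After taking off the 5th percentile of each array, the knockout means were 21.0% of wild type for C1qb, 31.3% for C1qc and 42.6% for C1qa.

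The marginal zone genes did not pass. Marco, a scavenger receptor of marginal zone macrophages, read 144 and 183 in WT and 137 and 137 in CYLD KO (log2 fold change -0.24, 95% interval -0.57 to 0.09). Siglec1, the sialic acid receptor of metallophilic macrophages, read 115 and 128 in WT and 100.3 and 91.3 in CYLD KO (log2 fold change -0.34, adjusted p = 0.233). In both genes the knockout arrays lay below the wild-type arrays, as in 23.6% of all genes, without reaching the threshold.

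**Figure D2:**
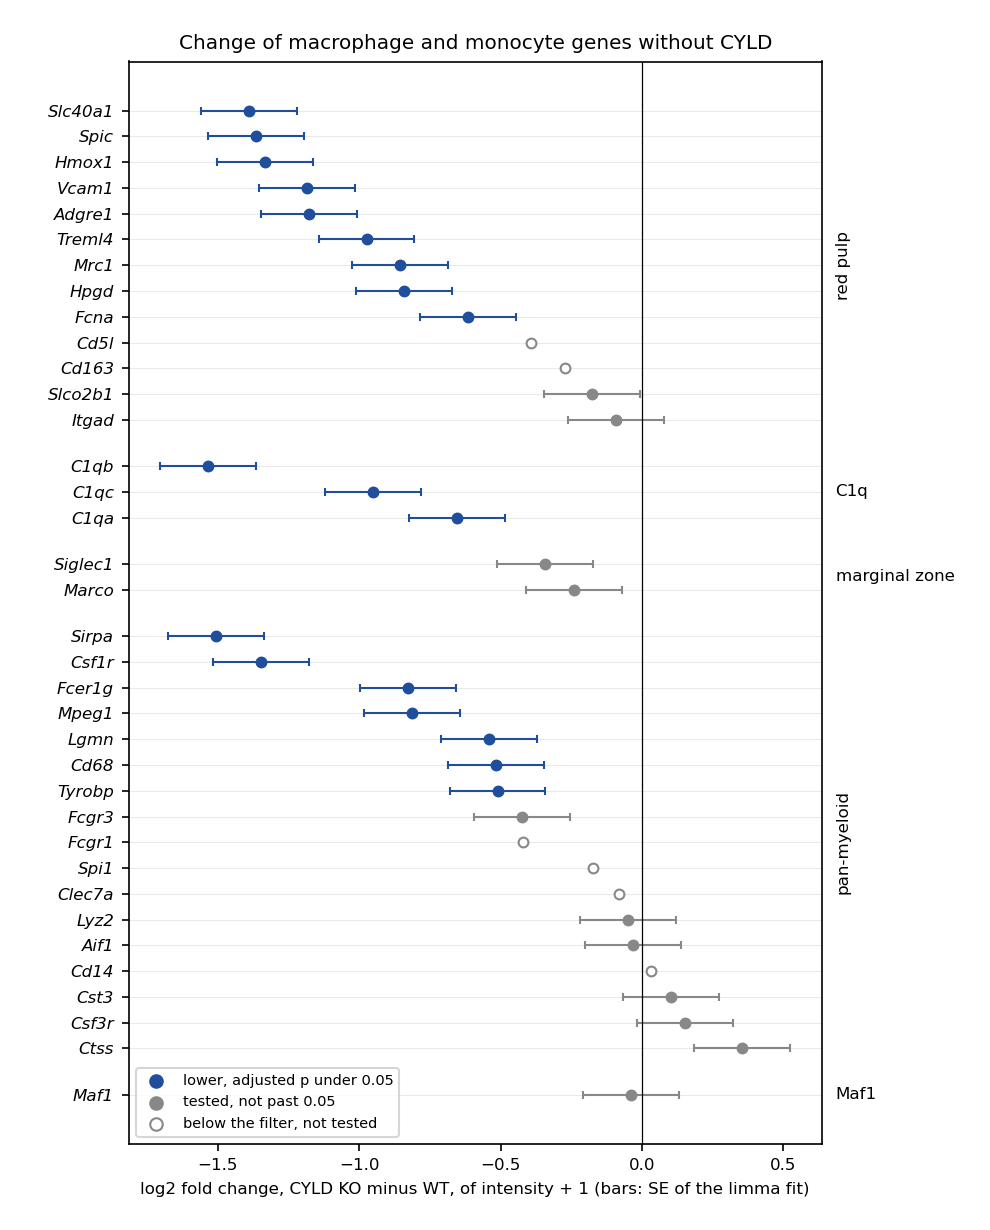
Log2 fold change, CYLD KO minus WT, of each member (bars, SE of 0.17 from limma; open points, genes below the filter). Blue points are the 19 genes that fell, from -1.53 for C1qb to -0.51 for Tyrobp; the highest value is 0.35 for Ctss.

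Pan-myeloid genes were split. Of the 17, 7 fell (3.50% of all tested genes did), 6 were tested and did not pass, and 4 were below the filter. The median log2 fold change was -0.42, against -0.86 over the red pulp genes. This difference between groups of genes was not tested, since the genes of a group share the same 4 arrays. The pan-myeloid median is the value of Fcgr1, a gene below the filter, where the floor makes a fold smaller. The values ran from -1.51 for Sirpa to 0.35 for Ctss.

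Sirpa and Csf1r had the largest falls of the pan-myeloid genes. Sirpa, the inhibitory receptor that binds CD47, read 401 and 403 in WT and 110 and 181 in CYLD KO. The wild-type arrays were nearly equal and the knockout arrays differed, but neither came near wild type (log2 fold change -1.51 ± 0.17, adjusted p = 2.17e-16). Csf1r, the receptor for the growth factor on which most macrophages depend, read 230 and 214 in WT and 73.6 and 102 in CYLD KO (log2 fold change -1.35 ± 0.17, adjusted p = 4.41e-13). Fcer1g, the signalling gamma chain of Fc receptors, read 370 and 378 in WT and 172 and 258 in CYLD KO, a log2 fold change of -0.83 (adjusted p = 5.17e-05). Tyrobp, the adaptor DAP12, had a log2 fold change of -0.51 and read 135 and 123 in WT against 89.9 and 90.01 in CYLD KO. Its adjusted p was 0.0345, rising to 0.517 without WT replicate 1, 0.211 without WT replicate 2 and 0.0655 without CYLD KO replicate 2.

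Of the genes of phagosomes and lysosomes, Mpeg1, a pore-forming protein of phagocytes, read 172 and 175 in WT and 81.5 and 118 in CYLD KO (log2 fold change -0.81, adjusted p = 7.49e-05). The lysosomal membrane protein gene Cd68 and the protease gene Lgmn passed narrowly, with log2 fold changes of -0.52 and -0.54 (adjusted p = 0.032 and 0.0222). Cd68 read 224 and 202 in WT and 127 and 173 in CYLD KO, and Lgmn 365 and 341 in WT and 230.2 and 255 in CYLD KO, without overlap. Both calls were lost without either WT array (adjusted p of 0.525 and 0.190 for Cd68, 0.425 and 0.191 for Lgmn) and without CYLD KO replicate 1 (0.269 and 0.0682). A protease gene and the gene of its inhibitor, which many other cells also express, did not pass. The protease gene Ctss read 1412 and 1476 in WT and 1821 and 1871 in CYLD KO, a log2 fold change of 0.35 (95% interval 0.02 to 0.69, adjusted p = 0.213), and passed only with an intensity trend in the variance (adjusted p = 0.0253). Its inhibitor cystatin C, Cst3, read 649 and 738 in WT and 676 and 819 in CYLD KO, with overlapping groups.

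Lyz2, Cd14 and Csf3r, which monocytes and granulocytes also express, did not pass or lay below the filter. Lyz2, lysozyme of myeloid cells, read 102 and 104 in WT and 76.1 and 130.1 in CYLD KO, so the knockout arrays lay on either side of wild type; its probe set may also pick up the near-identical Lyz1. Cd14, the lipopolysaccharide co-receptor, read 60.3 and 65.6 in WT and 70.2 and 59.0 in CYLD KO. Csf3r, the receptor for G-CSF, had a log2 fold change of 0.15 (adjusted p = 0.668). Fcgr3, a low-affinity IgG receptor, read 102 and 108 in WT and 83.1 and 73.0 in CYLD KO and did not pass (adjusted p = 0.111, but 0.0404 without CYLD KO replicate 1). Its high-affinity relative Fcgr1 read 72.5 and 79.8 in WT and 58.2 and 54.9 in CYLD KO, below the filter. Spi1, the gene of PU.1, read 79.6 and 58.7 in WT and 66.0 and 55.5 in CYLD KO and was not tested, nor was Clec7a, the beta-glucan receptor, at 66.7 and 68.9 against 57.5 and 71.2. Aif1, which encodes the calcium-binding protein IBA1, read 71.2 and 87.9 in WT and 97.4 and 61.5 in CYLD KO. Maf1 read 370 and 286 in WT and 313 and 321 in CYLD KO, a log2 fold change of -0.04.

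Among the genes that fell, the knockout arrays kept one order. CYLD KO replicate 2 was above replicate 1 in 18 of the 19, Mrc1 being the exception, and in 27 of all 36 members. Among the 488 genes called lower it was above in 222 (45.5%), and among all tested genes in 46.2%. The median log2 difference from the wild-type mean over the 19 was -1.10 for replicate 1 and -0.87 for replicate 2. The gap was widest for Sirpa, at -1.86 and -1.15. The summed intensity of the 19 was 4418 and 4137 on the WT arrays and 1901 and 2360 on the CYLD KO arrays. Of the 19, 19 and 18 lay above the array median in WT and 5 and 7 in CYLD KO. Because the 19 were picked for a lower call, the direction of their medians, sums and counts was fixed in advance. Over all 36 members the sums were 8075 and 7973 in WT and 5845 and 6498 in CYLD KO. Of the 36, 27 and 25 lay above the array median in WT and 10 and 12 in CYLD KO. Of all 19938 genes with 1 symbol, 10747 and 10892 lay above it in WT and 10854 and 11011 in CYLD KO.

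**Figure D3:**
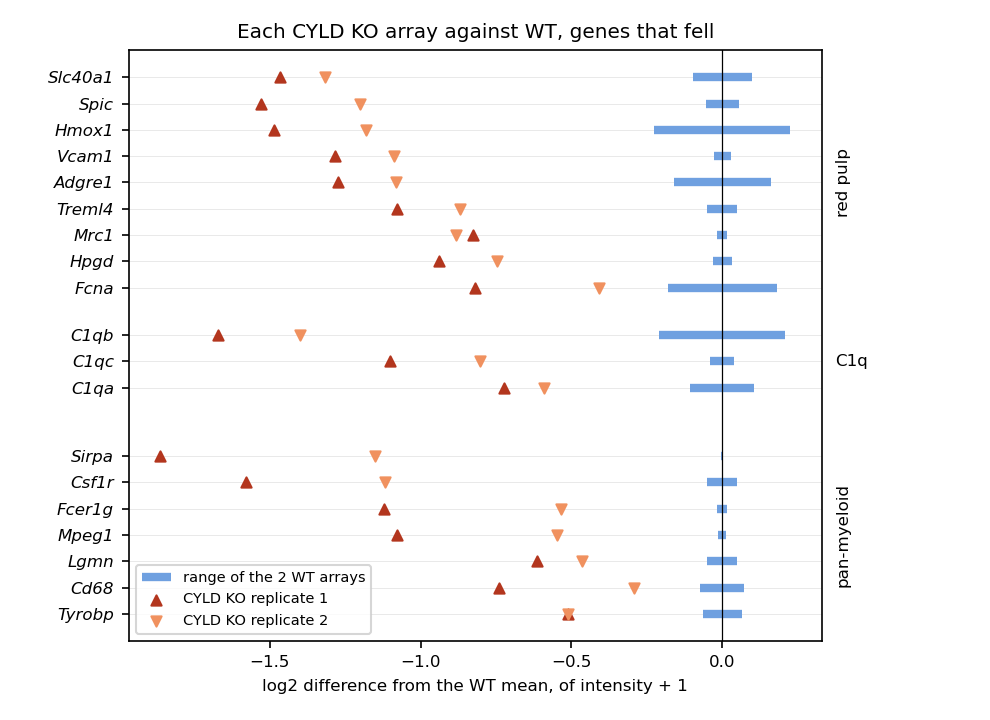
Log2 difference of each CYLD KO array from the wild-type mean for the 19 genes that fell (triangles), with the range of the 2 WT arrays as a bar around 0. Replicate 2 lies to the right of replicate 1 in 18 of 19. Both lie below the wild-type range for each gene, as in 485 of all 488 genes called lower.

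Other macrophage genes, from a list of 20 that holds no member, moved both ways. Of the 18 measured, 10 were tested, 3 fell and 3 rose, against 3.50% and 4.79% of all tested genes. The other 8 lay below the filter. With no filter on low values 4 fell and 3 rose, out of 482 genes lower and 674 higher. Both knockout arrays lay below both wild-type arrays in 9 of the 18 and above them in 4, as in 4701 and 4276 of all 19938 genes. The median over the 18 was -0.29 and 13 were below 0, as were 10348 of all 19938 genes. Tlr7, a receptor for single-stranded RNA, read 510 and 421 in WT and 136 and 224 in CYLD KO (log2 fold change -1.41, adjusted p = 2.98e-14). The phospholipase gene Pld4 and the complement gene C6 fell by 0.72 and 0.68 on the log2 scale. The genes that rose were Cybb, the catalytic subunit of the phagocyte oxidase (453 and 519 in WT, 987 and 1140 in CYLD KO), the TAM receptor gene Axl (963 and 999 against 1919 and 2061) and Ms4a6c (551 and 549 against 821 and 962). The summed level of the list was 5820 and 5652 in WT and 7104 and 7562 in CYLD KO, a sum that its bright genes Axl and Cybb carry. Ms4a6c and C6 were named after their values were seen.

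Of 14 measured genes of iron and haem handling outside the set, all tested, 3 fell and 0 rose, against 3.50% and 4.79% of all tested genes. At an unadjusted p under 0.05, 4 were lower, Nfe2l2 being the 1 without a call and named after its value was seen, and 0 were higher. Trf, transferrin, read 180 and 166 in WT and 73.3 and 88.9 in CYLD KO (log2 fold change -1.09, adjusted p = 1.69e-08). Lrp1, the receptor that takes up haem bound to haemopexin, had a log2 fold change of -0.997 and Ftl1, the ferritin light chain, one of -0.54. The ferritin heavy chain gene Fth1 had a log2 fold change of -0.05.

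Markers of other cells were read the same way. The 8 measured T and Treg genes, Cd3e, Il2ra and Foxp3 among them, had 0 limma calls in either direction (2 lower and 0 higher at an unadjusted p under 0.05), with summed levels of 14971 and 14281 in WT and 14317 and 12459 in CYLD KO. The 2 were Il2ra and Cd5, named after their values were seen. The lists of monocytes, granulocytes, dendritic cells, B cells, plasma cells and platelets had 0 genes called by limma, of 19 tested in all. Most of their genes lay below the filter and were not tested: 3 of 8 measured monocyte genes and 2 of 10 granulocyte genes were tested, 5 of 8 of dendritic cells, 5 of 9 of B cells, 2 of 5 of plasma cells and 2 of 5 of platelets. Their sums therefore lie largely near the floor of the arrays, where a fall would show little. At an unadjusted p under 0.05, 1 B cell gene, Cd79b, was lower (adjusted p = 0.0849), which is named after its value was seen. The erythroid genes were all below the filter. The monocyte list summed to 695 and 703.5 in WT and 744 and 765 in CYLD KO, the granulocyte list to 692 and 711 against 696 and 775, and the dendritic list to 745 and 783 against 765 and 829.7. In the NK and CD8 T cell list Eomes rose, and in the list of endothelium and stroma Pecam1 fell by 0.56 and Madcam1 rose by 0.70 on the log2 scale, with sums of 1355 and 1384 in WT and 1211 and 1118 in CYLD KO. Vcam1 is also expressed in that tissue. The part of other cells in the members' fall was not tested.

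**Figure D4:**
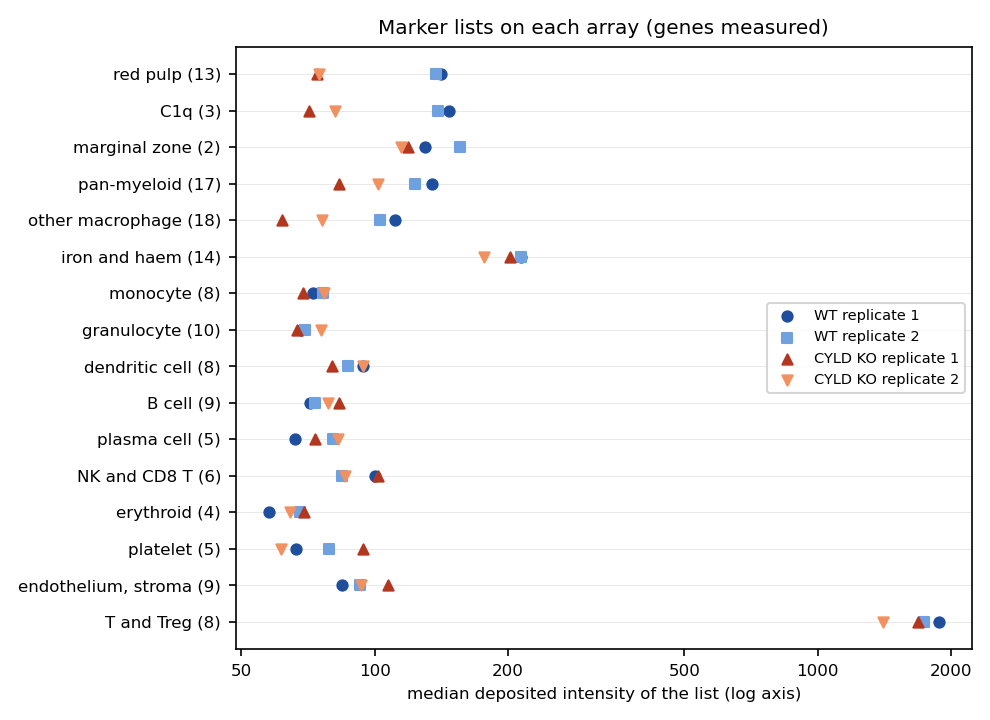
Median deposited intensity (log axis) of each marker list on the 4 arrays, with the number of genes measured in brackets; arrays may be compared within a list, not one list with another. The red pulp medians are 141 and 138 in WT and 74.0 and 74.99 in CYLD KO, while monocyte and granulocyte medians, mostly of genes below the filter, overlap between the groups.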

How the data were processed

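Per the labels' protocols, RNA of the sorted cells was isolated with the RNeasy Micro kit and turned into biotinylated cRNA for the arrays. The authors deposited 1 intensity for each probe set on each array, which the range of 26.6 to 7205 shows to be linear. Summarisation, background correction and scaling are not given in the sources used here, and no detection call came with the values. The number of arrays limits the precision.

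Of 35557 probe sets, 21789 had exactly 1 symbol in the platform annotation, which can be old, 1621 had several and 12147 had none listed. The Entrez identifiers of all 36 members were found in the RefSeq genes (assembly GRCm38.p6). Intensities were taken as log2(value + 1), the probe set with the highest mean log2 value was kept per gene, and the 13956 genes above the 30th percentile of the mean (6.29, an intensity of 77.5) were tested with limma 3.58.1 in R 4.3.3 (lmFit, eBayes, 2 residual degrees of freedom). P-values were adjusted by Benjamini and Hochberg over all tested genes at 0.05. Fits that left out 1 array kept the tested genes.

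The members, the grouping by role and the lists were chosen with earlier results of these data known. All members could be named, and of each other list at most the 3 brightest genes and the 4 largest changes past the threshold, with the exceptions marked in the text. The replicate numbers are not stated to pair the samples. Promoters came from RefSeq.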

Additional observations from a re-analysis of the deposited data

How the results depend on the processing

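None of the 19 members that fell changed direction under any alternative in which it was tested. All 19 kept the call with no filter, quantile normalization, a pseudocount of 16, array weights, the mean of all probe sets and, added after seeing the data, the probe set with the highest mean intensity, which made 20 with Itgad. The calls lost elsewhere, apart from the fit with no pooling and the filter at the median, were of Cd68, Lgmn, Tyrobp, Fcna and C1qa; Hpgd dropped below the filter when the 5th percentile was subtracted. With no pooling of variances, 0 genes were called in either direction over all genes, the members, the red pulp and the pan-myeloid genes, and 1813 genes had an unadjusted p under 0.05. With the filter at the median 10 members and 3 red pulp genes were lower, since fewer were tested. At a threshold of 0.01, 278 genes and 4 pan-myeloid genes were lower. An intensity trend called 1 member, Ctss, higher. The red pulp median was -0.75 with a pseudocount of 16 and -1.26 with the 5th percentile subtracted, and the pan-myeloid median -0.34 and -0.595. The cause of these shifts was not tested.

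Leaving out 1 array gave 254 to 919 genes higher and 118 to 767 lower, 14 to 18 members lower, 8 to 9 red pulp and 4 to 6 pan-myeloid genes lower, with medians of -0.94 to -0.87 and -0.44 to -0.36. The group left with 1 array is assumed to vary like the other. With the replicate block 18 members were lower, 9 red pulp and 6 pan-myeloid genes, out of 428 genes; Tyrobp had an adjusted p of 0.0520. The deviations of same-numbered arrays correlated at -0.092 across genes, so the numbers were not taken as pairs. Signals near the floor limit what can be seen of Cd5l, Cd163, Spi1, Fcgr1, Cd14 and Clec7a.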
